A study of Mus musculus with 12 samples.

Results

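The comparison described here is that of c-KITlo with c-KIThi long-term hematopoietic stem cells (LT-HSCs) from normal mouse bone marrow. Its members are the 6 normal libraries of a series of 12, chosen by the sample labels alone, with 3 c-KITlo libraries set against 3 c-KIThi libraries. LT-HSCs were sorted as lineage-negative cells with Sca-1, c-KIT and CD150 but without Flt3 and CD48, and the c-KITlo and c-KIThi gates took the cells with the least and the most c-KIT protein on their surface. The sample labels give the source as normal B6 mice. The methods instead describe controls that carried the Scl-tTA and tetO-BCR-ABL transgenes, whose CD45.2 marrow was transplanted into lethally irradiated wild-type CD45.1 recipients kept on doxycycline so that BCR-ABL stayed off, and nothing in the labels says which of the sources the normal RNA came from. The 6 other libraries, c-KITlo and c-KIThi LT-HSCs of leukemic Scl-tTA-BCR-ABL mice in which chronic myelogenous leukemia (CML) had developed, entered the fit and served as the only outside comparison. The animals' sex is not given for these libraries, and 3 libraries per group were analysed here. Nothing beyond the term biological replicate says that they came from separate mice, so p-values measure the spread between these libraries, which may in part be technical.

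c-KIT is the receptor tyrosine kinase for stem cell factor, and its signal passes through PI3-kinase, the MAP kinases and STAT proteins. LT-HSCs are rare marrow cells that can rebuild all blood lineages after transplantation. Most of them rest outside the cell cycle, with low protein synthesis and low mitochondrial activity, and rely on lysosomes and autophagy to clear proteins and organelles. LT-HSCs with little surface c-KIT are known as the more quiescent and more potent fraction of normal marrow, and the comparison asks how their transcripts differ from those of LT-HSCs with much surface c-KIT.

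RNA was copied into cDNA with a SMARTer kit, which primes on poly(A), and the deposited values are whole-number read counts per gene. A gene's level is its CPM, its share of its library's counts on the TMM scale, which compares 1 gene between libraries and not different genes with each other. A gene rose or fell when edgeR's quasi-likelihood test gave a Benjamini-Hochberg adjusted p under 0.05 over the 14676 genes that passed a filter on low counts. All fold changes are c-KITlo over c-KIThi, with standard errors (SE) of the log2 fold change from the same fit, and all adjusted p-values are from edgeR.

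The libraries of the groups differed in depth and in the kind of read they held. Gene counts were 14487608 to 31020852 in c-KITlo libraries, against 7753878 to 9843191 in c-KIThi libraries. Entries on genes made up 43.9% to 60.6% of the count table in c-KITlo libraries, against 24.4% to 28.3% in c-KIThi libraries. Genes with under 1 kb of exon held 1.4% to 5.46% of gene counts in c-KITlo libraries, against 11.5% to 13.8% in c-KIThi libraries. The groups did not overlap in any of these shares (exact two-sided permutation p = 0.1 for each, the smallest that 3 against 3 allow). Within groups, the median SD of a gene's log2 CPM was 1.24 in c-KITlo and 0.77 in c-KIThi libraries, against 0.29 in CML c-KITlo and 0.76 in CML c-KIThi libraries. The deepest library, c-KITlo library 1, reached 10 counts in only 9760 genes, fewer than any of the 5 other normal libraries, and its score on principal component 1 (29.7% of the variance) was 333, against scores of -60.6 to 39.7 elsewhere. The c-KITlo library 3 held 6605 CPM of 20 neutrophil granule markers, against 50 to 1210 CPM in the 5 other normal libraries.

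**Figure D1:**
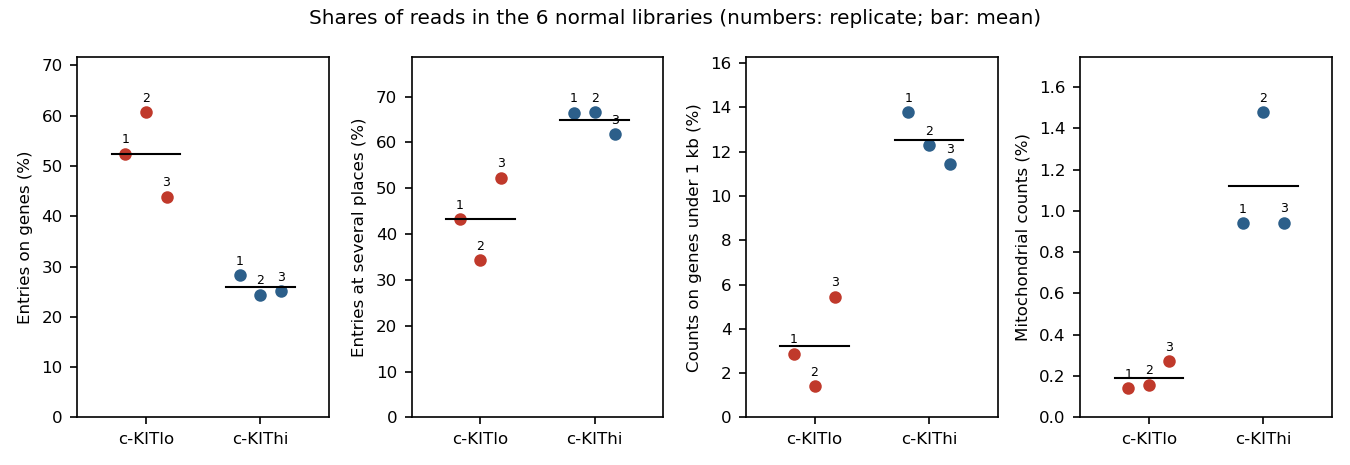
Shares of reads in the 6 normal libraries, as a percentage of table entries (panels on entries) or of gene counts (panels on short genes and mitochondrial counts), with each library as a numbered point and the group mean as a bar. In each panel the 3 c-KITlo libraries lie apart from the 3 c-KIThi libraries, lower for entries at several places (34.3% to 52.3%, against 61.8% to 66.5%), short genes and mitochondrial counts (0.141% to 0.271%, against 0.941% to 1.48%), and higher for entries on genes.

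In normal c-KITlo versus c-KIThi LT-HSCs, 455 genes rose (3.1% of those tested) and 499 fell (3.4%), 6.5% in all. Counts of list members below are to be read against these shares. Genes that rose had a median exonic length of 3628 bases, and 449 of the 455 were protein coding. Genes that fell were shorter (median 2256 bases, against 3927 bases over all tested genes), and 150 of them lay under 1 kb. Without a test of the spread, the 3 c-KITlo libraries lay above the 3 c-KIThi libraries in 1618 genes (11%) and below them in 1847 genes (12.6%), 23.6% in all. Scaled by medians of ratios instead, the split was 322 upward and 547 downward calls, and the middle gene of all those tested lay at a log2 fold change of 0.02, against 0.16 with TMM.

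These calls rest on a spread shared with the CML libraries and on single libraries. With only the 6 normal libraries in the fit, 0 genes passed in edgeR, where 905 rose and 1463 fell at an unadjusted p under 0.05, and DESeq2 on the same 6 libraries called 426 that rose and 717 that fell. Without c-KIThi library 2, 0 genes passed (1452 rose and 1710 fell at an unadjusted p under 0.05), so each gene called below is lost without it. The counts were 30 and 21 without c-KITlo library 1, 766 and 530 without c-KITlo library 2, 955 and 1058 without c-KITlo library 3, 39 and 99 without c-KIThi library 1, and 65 and 162 without c-KIThi library 3. Without c-KITlo library 1, no gene list described below kept more than 1 member that passed in either direction. Leaving out 1 CML library gave 146 to 423 that rose and 228 to 472 that fell.

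The tetraspanin *Cd82*, a membrane protein that holds LT-HSCs in quiescence, had the smallest adjusted p of all genes. It had 429, 208 and 179 CPM in c-KITlo libraries, against 11.1, 15.3 and 14.8 CPM in c-KIThi libraries. Every c-KITlo library lay far above every c-KIThi library, a rise of 19.8-fold (log2 fold change 4.31, SE 0.46, adjusted p = 0.00724). *Cd82* (ENSMUSG00000027215.13) lies on the reverse strand of chromosome 2 of GRCm38 from 93419111 to 93463140. It passed in 20 of 22 alternative settings, against at most 19 for the other genes described here. In bulk libraries, fewer cells that express a gene and less RNA per cell cannot be told apart.

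The genes of the surface proteins used for the sort came next, with *Procr*, whose protein was not part of the sort. *Kit*, the transcript of the sorted receptor, had 380, 675 and 33.6 CPM in c-KITlo libraries, against 132, 143 and 129 CPM in c-KIThi libraries. It was thus highest in c-KITlo libraries 1 and 2 and lowest of all in c-KITlo library 3, and the test was not passed (log2 fold change 1.43, adjusted p = 0.254). The gates were set on protein, so the transcript does not check the labels. *Slamf1*, which encodes CD150, had 0.0332, 60.5 and 60.6 CPM in c-KITlo libraries, against 26.5, 33.4 and 40.9 CPM in c-KIThi libraries. The value of c-KITlo library 1 is 1 read of 31020852, although the cells were sorted for the protein. *Ly6a*, which encodes Sca-1, had 408, 186 and 856 CPM in c-KITlo libraries, against 62.7, 50.1 and 56.7 CPM in c-KIThi libraries. It rose 8.56-fold, and *Procr*, which encodes the protein C receptor EPCR on LT-HSCs, rose 12.1-fold with 333, 105 and 240 CPM in c-KITlo libraries, against 26.5, 11.5 and 18.1 CPM in c-KIThi libraries (adjusted p = 0.018 and 0.0142). Of the markers that the sort excludes, *Cd48* lay at 0 to 5.5 CPM in c-KITlo libraries and at 1.9 to 13.2 CPM in c-KIThi libraries, and *Flt3* at 0.0332 to 37.4 CPM in c-KITlo libraries and at 0.126 to 6.94 CPM in c-KIThi libraries.

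**Figure D2:**
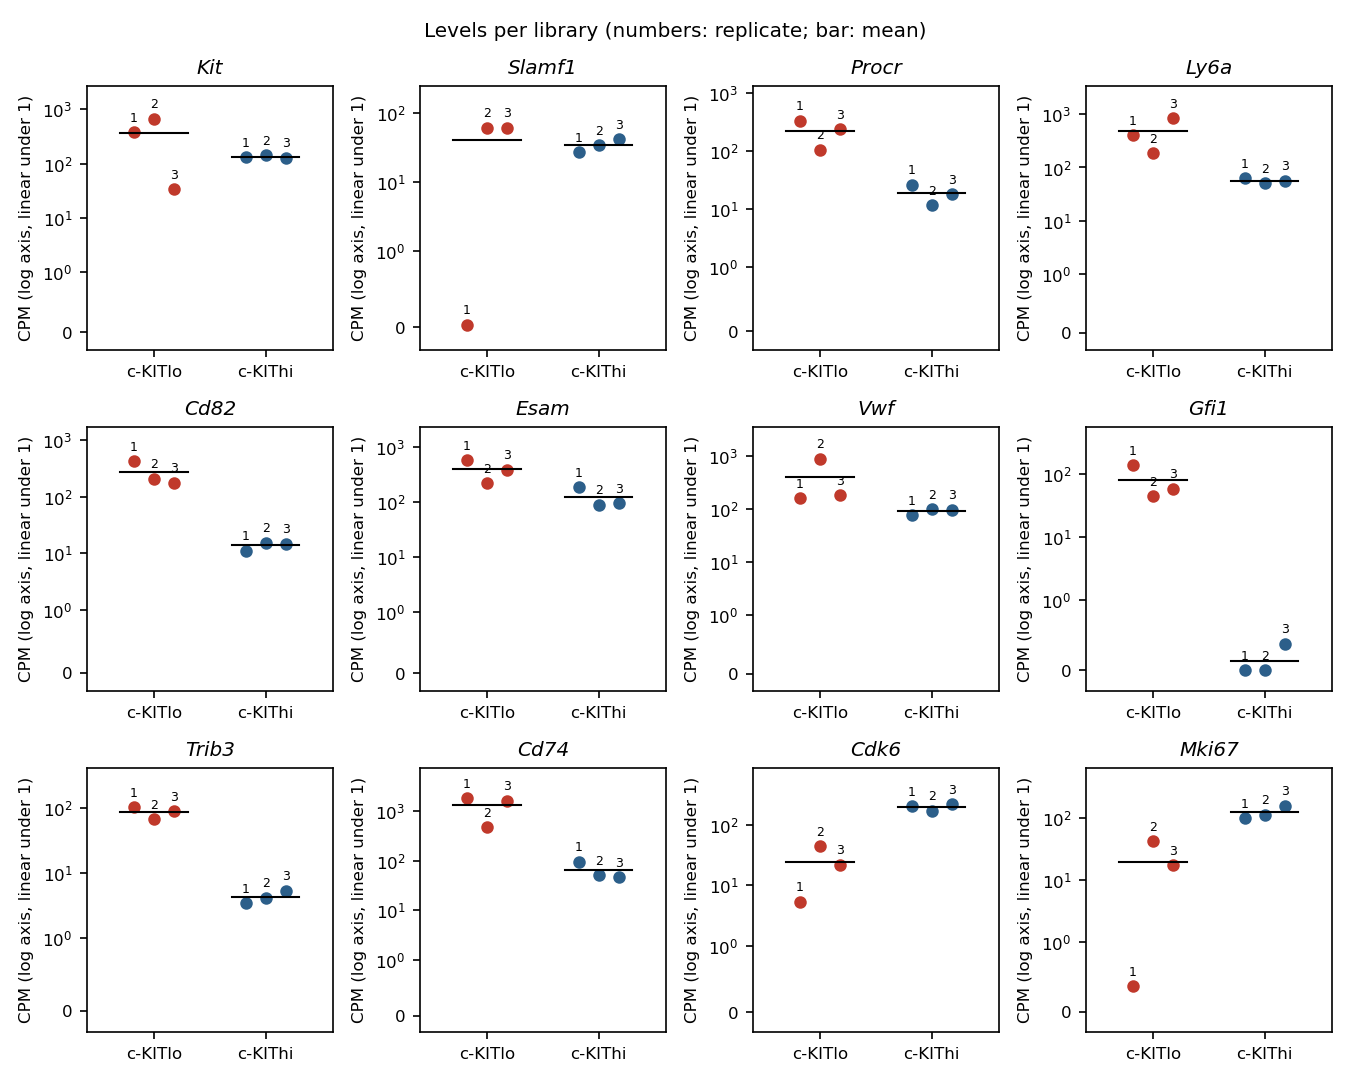
CPM of 12 genes in each normal library on a log axis that is linear under 1, with libraries as numbered points and group means as bars. *Cd82*, *Procr*, *Ly6a*, *Gfi1*, *Trib3*, *Cd74*, *Esam* and *Vwf* lie higher in all 3 c-KITlo libraries and *Cdk6* and *Mki67* lower, while *Kit* and *Slamf1* overlap because of c-KITlo library 3 and c-KITlo library 1.

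Among 31 tested LT-HSC surface and cytoplasmic markers, 6 rose and 0 fell, the median log2 fold change was 1.47, and the groups lay apart upward in 7. Besides *Cd82*, the adhesion molecule *Esam* had 578, 221 and 388 CPM in c-KITlo libraries, against 187, 88.7 and 94.7 CPM in c-KIThi libraries (3.2-fold, adjusted p = 0.043). Von Willebrand factor, *Vwf*, which marks platelet-biased LT-HSCs and also endothelium, had 162, 893 and 184 CPM in c-KITlo libraries, against 76.5, 99.2 and 98.3 CPM in c-KIThi libraries (adjusted p = 0.0462). Here c-KITlo library 2 stood far above the others, and the rise was lost in 18 of 22 alternative settings. The summed level of 20 endothelial and stromal markers, *Vwf* among them, was 308, 1050 and 353 CPM in c-KITlo libraries, against 188, 214 and 206 CPM in c-KIThi libraries. *Vwf* alone made up 162, 893 and 184 CPM of the c-KITlo sums, so the high sum of c-KITlo library 2 is mostly that of *Vwf*. The groups did not overlap in that sum (p = 0.1 in the exact permutation test), of 11 tested members 2 rose (*Vwf* and *Cldn5*) and 1 fell (*Pdgfrb*), and the part of such cells in the rises of *Vwf*, *Esam*, *Procr* and *Ramp2* was not tested. *Mettl7a1* and the calcium channel *Trpc6* also rose (11.7- and 5.73-fold). Without c-KITlo library 1, 1 of the 31 passed.

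Of 38 transcription factors that define HSCs, 0 rose and 1 fell, with a median log2 fold change of -0.05. The median was above 0 with length offsets, with no filter and with a replicate block. With length offsets it was 0.42, where that of all tested genes was 0.61. *Meis1*, a homeobox factor, had 297 to 483 CPM in c-KITlo libraries and 191 to 362 CPM in c-KIThi libraries, and *Hlf*, a marker of the most immature HSCs, had 58.5 to 166 CPM in c-KITlo libraries and 20.7 to 107 CPM in c-KIThi libraries. *Mecom*, needed for HSC maintenance, had 21 to 171 CPM in c-KITlo libraries and 28.8 to 247 CPM in c-KIThi libraries. All of these overlapped between the groups. The member that fell was *Zbtb16*, which encodes PLZF, with 0 counts in c-KITlo libraries and 29 counts over the c-KIThi libraries, at least 27.8-fold lower when the c-KITlo group is set at 3 counts in all.

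Outside that list, the repressor *Gfi1*, which restrains HSC proliferation, had 140, 44.5 and 59.1 CPM in c-KITlo libraries, against 0, 0 and 0.382 CPM in c-KIThi libraries. The c-KIThi libraries held 3 counts in all, and the ratio of the groups was 697 with a 95% counting interval of 239 to 3383, which covers counting error only (adjusted p = 0.0142). Other genes with a large rise were the receptor-modifying protein *Ramp2*, with 129, 25.7 and 146 CPM in c-KITlo libraries against 0.434, 0 and 0.127 CPM in c-KIThi libraries, and the purine-degrading enzyme *Xdh*, with 50.2, 41 and 153 CPM in c-KITlo libraries against 0, 1.64 and 1.4 CPM in c-KIThi libraries. *Ramp2* shares 33.4% of its exonic bases with *Vps25*, whose reads cannot be told apart without strand. The glutathione peroxidase *Gpx3*, muscle glycogen phosphorylase *Pygm* and the copper transporter *Slc31a2* rose 94.5-, 38.5- and 35.1-fold. In c-KIThi libraries these 3 genes averaged 0.467 ± 0.603, 5.64 ± 3.55 and 1.33 ± 1.5 CPM (SD, n = 3 libraries).

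Of 21 G1 cyclins and kinases tested, 1 rose and 1 fell, where 3.1% and 3.4% of all tested genes did. *Cdk6*, the G1 kinase whose level sets how fast HSCs leave quiescence, had 5.34, 45.1 and 22.1 CPM in c-KITlo libraries, against 208, 173 and 223 CPM in c-KIThi libraries. It fell by 3.06 on the log2 scale (SE 0.67, adjusted p = 0.026), and its groups lay far apart. The D-type cyclin *Ccnd3* moved the other way, with 553, 312 and 371 CPM in c-KITlo libraries, against 137, 162 and 173 CPM in c-KIThi libraries (2.61-fold, adjusted p = 0.0438). The proliferation marker *Mki67* had 0.365, 41.9 and 17.1 CPM in c-KITlo libraries, against 97.4, 113 and 157 CPM in c-KIThi libraries. Its groups did not overlap, but the call was missed (log2 fold change -2.63, adjusted p = 0.13).

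Of 22 cell cycle brakes tested, 2 rose and 1 fell. *Hbp1*, a repressor of cell cycle genes, had 155, 204 and 129 CPM in c-KITlo libraries, against 41.6, 50.8 and 53.3 CPM in c-KIThi libraries (3.35-fold). The pocket protein gene *Rbl2*, which silences genes in resting cells, rose 9.64-fold but overlapped, as c-KITlo library 3 held 11.6 CPM and the c-KIThi libraries 6.5 to 15.8 CPM. From the list of imprinted genes, *Cdkn1c*, which encodes the p57 inhibitor of cyclin-dependent kinases, had 215, 69.2 and 111 CPM in c-KITlo libraries, against 19.7, 23.4 and 30.3 CPM in c-KIThi libraries (5.37-fold, adjusted p = 0.0267), and 30.7% of its exonic bases are shared with another gene model. The noncoding *Gas5*, which hosts small nucleolar RNAs, fell to 279, 93.6 and 513 CPM in c-KITlo libraries, against 2305, 1192 and 937 CPM in c-KIThi libraries.

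Of 31 clustered histone genes tested, 0 rose and 8 fell, the groups lay apart downward in 19, and the median log2 fold change was -3.56, against 0.16 over all genes. Their summed level was 85.8, 56.5 and 317 CPM in c-KITlo libraries, against 1095, 1345 and 930 CPM in c-KIThi libraries. *Hist1h3a* had 3 counts over the c-KITlo libraries and 406 over the c-KIThi libraries, and *Hist1h1e*, a linker histone, had 11.5, 1.64 and 4.09 CPM in c-KITlo libraries, against 46.5, 152 and 68.3 CPM in c-KIThi libraries. Replication-dependent histone mRNAs lack a poly(A) tail, so poly(A) priming reads them poorly, and near-identical copies can share reads. These genes are short (median exonic length 727 bases). After each library's dependence on exonic length was removed by offsets, 3 members fell and the median was -2.68, where that of all tested genes was 0.61. Of 46 MCM and replication fork genes, 0 rose and 1 fell (*Rpa3*, a subunit of the single-strand binding complex), with 15 apart downward and 1 upward.

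Interferon-linked genes rose in c-KITlo libraries among sensors, GTPases and effectors, and 0 of the tested members of these lists fell. Interferons signal through STAT and IRF factors, which bind the ISRE (here GAAA, NN, then GAAA again, N being any base) and GAS (TTCNNNGAA) elements of promoters. Upstream sequences of genes that rose are shown so that these letters can be read, from the RefSeq promoter table on GRCm38.p6, 5′ to 3′ on the gene's strand with the match and its flanks, and with capitals for the matched elements. In *Igtp*, *Irgm2* and *Tgtp2* an ISRE match began 11 bases after the start of a GAS match. In *Myd88* the matches overlap, and in *Gbp2* the ISRE letters are read on the other strand. The stretches of *Igtp* and *Irgm2* are nearly the same, and close copies of such a family can share reads.

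*Irf1*, chr11:53769904-53769952 (+ strand): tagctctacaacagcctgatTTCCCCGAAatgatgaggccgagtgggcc
*Igtp*, chr11:58199491-58199551 (+ strand): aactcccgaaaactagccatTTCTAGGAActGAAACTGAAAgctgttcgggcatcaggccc
*Irgm2*, chr11:58214882-58214942 (+ strand): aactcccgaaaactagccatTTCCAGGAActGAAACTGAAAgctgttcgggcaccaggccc
*Tgtp2*, chr11:49064253-49064313 (- strand): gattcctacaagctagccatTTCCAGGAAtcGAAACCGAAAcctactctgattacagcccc
*Myd88*, chr9:119340029-119340084 (- strand): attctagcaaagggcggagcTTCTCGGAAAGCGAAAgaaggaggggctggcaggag
*Gbp2*, chr3:142620584-142620633 (+ strand): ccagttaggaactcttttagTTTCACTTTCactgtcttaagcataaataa

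Within 250 bases upstream of the start, 7 of the 19 interferon and MHC list members that rose and matched the table (of 23 that rose) held the ISRE letters on either strand (36.8%), against 3.29% of 10399 tested genes in the table and 32.6% of the 92 list members whether they rose or not. The GAS letters were in 6 of the 19 (31.6%), against 7.17% of the tested genes and 17.4% of the list members. The joint run of GAS, NN and ISRE, searched after it was seen in *Igtp*, was in 5 of 27025 promoters of the table, of which 4 belong to list members and 3 of these to members that rose. A match is a run of letters and not a measured binding site.

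Interferon-induced GTPases act on the membranes around pathogens. Of 19 tested, 6 rose and 0 fell (median log2 fold change 2.01), all 19 had a log2 fold change above 0, and the groups lay apart upward in 12. *Igtp* had 549, 206 and 271 CPM in c-KITlo libraries, against 78.3, 33.3 and 86.6 CPM in c-KIThi libraries (5.18-fold, adjusted p = 0.022). *Irgm2* had 164, 141 and 26.7 CPM in c-KITlo libraries, against 3.04, 2.66 and 8.8 CPM in c-KIThi libraries, the largest fold of the 6 (22.8). *Tgtp2*, *Gbp2*, *Gbp3* and *Gbp8* rose 4.02-, 5.55-, 7.29- and 18.7-fold. The summed level of the 19 genes was 2935, 1457 and 1728 CPM in c-KITlo libraries, against 693, 468 and 569 CPM in c-KIThi libraries, so the groups did not overlap. Of the 19 genes, 0 passed without c-KITlo library 1 or without c-KIThi library 1, 7 passed without c-KITlo library 2 and 6 without c-KITlo library 3.

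Some regulators upstream of them also rose. Of 19 interferon regulatory factors and sensors tested, 4 rose and 0 fell (median log2 fold change 1.8), and 10 lay apart upward and 1 downward. *Irf1*, which drives MHC and GTPase genes after interferon-γ, had 207, 139 and 172 CPM in c-KITlo libraries, against 14.2, 29.7 and 35.6 CPM in c-KIThi libraries (6.52-fold, log2 fold change 2.70, SE 0.44, adjusted p = 0.0146). *Irf9*, which binds DNA together with STAT proteins, rose 3.6-fold with 289, 189 and 114 CPM in c-KITlo libraries, against 85.7, 41 and 38 CPM in c-KIThi libraries. The Toll-like receptor adaptor *Myd88* rose 3.05-fold. The interferon-γ receptor chain *Ifngr1* had 358, 128 and 189 CPM in c-KITlo libraries, against 59.1, 57.6 and 69.9 CPM in c-KIThi libraries (3.62-fold, adjusted p = 0.0263).

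Of 42 interferon-stimulated effectors tested, 6 rose and 0 fell (median log2 fold change 1.57), with 12 apart upward and 1 downward. *Oasl2*, of the double-stranded RNA sensing family, had 274, 173 and 129 CPM in c-KITlo libraries, against 22.4, 20.1 and 64.2 CPM in c-KIThi libraries (5.4-fold). *Shisa5*, a membrane protein of the endoplasmic reticulum, had 1790, 631 and 1353 CPM in c-KITlo libraries, against 209, 229 and 196 CPM in c-KIThi libraries (5.95-fold, adjusted p = 0.0154). The remaining 4 were *Cmpk2*, *Ifi44*, *Lgals3bp* and *Sp100*, at 8.9-, 7.89-, 3.11- and 2.33-fold.

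Some antigen presentation genes rose as well. Of 23 MHC class I pathway genes tested, 5 rose and 0 fell (median log2 fold change 0.78, 7 apart upward and 0 downward). The nonclassical molecules *H2-T23*, *H2-Q6* and *H2-M3* rose 4.28-, 4.39- and 4.16-fold, the peptide transporter subunit *Tap2* rose 2.98-fold, and tapasin, *Tapbp*, rose 2.49-fold. *H2-T23* had 578, 246 and 826 CPM in c-KITlo libraries, against 135, 126 and 124 CPM in c-KIThi libraries. MHC genes are a family of close copies, so reads can be split or lost between members. Of 12 class II pathway genes, 2 rose and 0 fell, with a median log2 fold change of 1.93 that was 0.69 without c-KITlo library 3. The invariant chain *Cd74* had 1786, 467 and 1590 CPM in c-KITlo libraries, against 94.7, 50.5 and 46.8 CPM in c-KIThi libraries (20-fold, log2 fold change 4.32, SE 0.56, adjusted p = 0.0142), and the lysosomal protease *Ctsl*, which can trim it, rose 3.61-fold. *H2-Aa*, a chain of a classical class II molecule, had 378, 80.6 and 680 CPM in c-KITlo libraries, against 128, 66 and 62.8 CPM in c-KIThi libraries, and *H2-Ab1*, the other chain, 324, 105 and 883 CPM in c-KITlo libraries, against 155, 112 and 109 CPM in c-KIThi libraries. Both overlapped between the groups and missed the threshold (adjusted p = 0.0682 and 0.116). The lymphotoxin gene *Ltb* had 1196, 314 and 1118 CPM in c-KITlo libraries, against 63.2, 51.7 and 51.4 CPM in c-KIThi libraries (15.8-fold, adjusted p = 0.0142). In the same libraries, 20 B-lineage markers summed to 448, 344 and 320 CPM in c-KITlo libraries, against 454, 165 and 212 CPM in c-KIThi libraries, and monocyte and dendritic cell markers to 978, 468 and 1797 CPM in c-KITlo libraries, against 1015, 681 and 587 CPM in c-KIThi libraries. Both marker sums overlapped between the groups, and 0 B-lineage markers rose or fell in edgeR. The 12 B-lineage markers tested had a median log2 fold change of 2.28, which was 0.03 without c-KITlo library 2, and 8 lay above 0. In DESeq2, 3 of them rose and 1 fell. The 13 monocyte and dendritic cell markers tested had a median of 0.82, and 9 lay above 0. The part of such cells in the rises of *Cd74* and *Ltb* was not tested.

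Of 42 lysosome and V-ATPase genes tested, 9 rose, 0 fell, 38 had a log2 fold change above 0, and 16 lay apart upward and 0 downward (median log2 fold change 1.1). Their summed level was 11645, 6867 and 10964 CPM in c-KITlo libraries, against 6533, 4828 and 4551 CPM in c-KIThi libraries. Cathepsins degrade proteins in lysosomes, and *Ctsb* had 1363, 751 and 887 CPM in c-KITlo libraries, against 221, 208 and 259 CPM in c-KIThi libraries (4.36-fold, adjusted p = 0.0209). *Ctsc* had 464, 349 and 321 CPM in c-KITlo libraries, against 85.9, 93.2 and 92.7 CPM in c-KIThi libraries (4.18-fold, adjusted p = 0.0142), and *Ctsh* rose 19.5-fold to 250, 65.8 and 187 CPM in c-KITlo libraries, against 7.95, 7.34 and 10.5 CPM in c-KIThi libraries. *Hexa*, *Psap* and *Grn*, which act in the breakdown of lipids and proteins in lysosomes, rose 2.57-, 4.14- and 2.57-fold. The V-ATPase genes *Atp6ap1* and *Atp6v1b2* rose 3.29- and 2.71-fold. Without c-KITlo library 1, 1 of the 42 passed, against 13 and 14 without c-KITlo libraries 2 and 3.

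Of 38 autophagy genes tested, 3 rose and 0 fell (median log2 fold change 1.01, 6 apart upward and 0 downward). Over all tested genes, 3.1% rose and 11% lay apart upward. *Atg7*, needed to attach LC3 to membranes, had 225, 97.6 and 64 CPM in c-KITlo libraries, against 17.6, 23.8 and 20 CPM in c-KIThi libraries (6.29-fold, adjusted p = 0.0204). LC3B itself, *Map1lc3b*, and the cargo receptor *Sqstm1* rose 3.22- and 3.72-fold. None of the 3 passed without c-KITlo library 1, and each passed in DESeq2 and in 6 to 15 of the 22 settings.

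Of 25 brakes on PI3-kinase and mTORC1 and FOXO-linked genes tested, 5 rose and 0 fell, with a median log2 fold change of 0.82. The median was 0.43 without c-KITlo library 2, where that of all tested genes was -0.14. It was below 0 in limma-voom only (-0.13), where that of all tested genes was -0.49. *Pik3ip1*, a membrane inhibitor of PI3-kinase, had 465, 332 and 435 CPM in c-KITlo libraries, against 124, 68.4 and 55.3 CPM in c-KIThi libraries (4.97-fold, adjusted p = 0.0149). *Txnip*, which limits glucose uptake, had 180, 401 and 246 CPM in c-KITlo libraries, against 79.1, 57 and 63.9 CPM in c-KIThi libraries (4.14-fold). *Tsc22d3*, which encodes the glucocorticoid-induced protein GILZ, *Klf6* and the GATOR1 subunit gene *Nprl3* rose 3.31-, 3.89- and 6.62-fold. The summed level of the 25 genes was 2090, 1736 and 1904 CPM in c-KITlo libraries, against 634, 700 and 665 CPM in c-KIThi libraries, with the groups apart.

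In c-KIT and cytokine signaling only a few members of each list rose, where 3.1% of all tested genes rose and 3.4% fell. Of 29 KIT signaling genes tested, 2 rose and 0 fell, namely *Ptpn6*, which encodes the phosphatase SHP-1 that dampens c-KIT (620, 398 and 575 CPM in c-KITlo libraries, against 122, 124 and 167 CPM in c-KIThi libraries), and the PI3-kinase regulatory subunit *Pik3r1* (2.83-fold). *Dusp2* was the member that rose among 14 Sprouty, SPRED and MAP kinase phosphatase genes (4.35-fold). The median log2 fold change of these 14 was 0.06, against 0.16 over all tested genes, and that of the KIT signaling genes was 0.38. Of 25 JAK, STAT and SOCS genes, 2 rose and 0 fell (median log2 fold change 1.21), the STAT5 targets *Pim2* and *Pim3*, kinases that favor survival (6.1- and 4.08-fold). Of 35 cytokine receptor chains, 4 rose (*Ifngr1*, *Il10ra*, *Il11ra1* and *Il27ra*) and 1 fell. The latter was *Acvr1*, a receptor of the TGF-β family, with 0 counts in c-KITlo libraries and 43 over the c-KIThi libraries.

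Stress genes were mixed. Of 35 integrated stress response genes tested, 3 rose and 0 fell. *Trib3*, a pseudokinase induced by ATF4, had 103, 67.3 and 89.9 CPM in c-KITlo libraries, against 3.47, 4.17 and 5.35 CPM in c-KIThi libraries (20-fold, log2 fold change 4.32, SE 0.71, adjusted p = 0.0146). *Ppp1r15a*, which reverses the block on translation, and *Herpud1*, of protein disposal from the endoplasmic reticulum, rose 4.41- and 2.37-fold. Among 21 AP-1 and immediate early genes, *Junb* had 332, 210 and 273 CPM in c-KITlo libraries, against 30.6, 48.2 and 59.1 CPM in c-KIThi libraries, and *Fosl2* had 0.663, 9.89 and 2.94 CPM in c-KITlo libraries, against 108, 111 and 90.3 CPM in c-KIThi libraries. These 2 AP-1 subunits thus went opposite ways (5.91-fold higher and a log2 fold change of -4.51), and *Zfp36*, which destabilizes inflammatory mRNAs, rose 4.29-fold. Of 35 antioxidant and redox genes tested, 3 rose and 2 fell (median log2 fold change 0.36). The antioxidant regulator *Nfe2l2* and the redox genes *Srxn1* and *Txnrd2* rose 3.28-, 4.53- and 3.77-fold, while *Sod1* and the metallothionein *Mt1* fell (log2 fold changes -2.19 and -3.38).

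**Figure D3:**
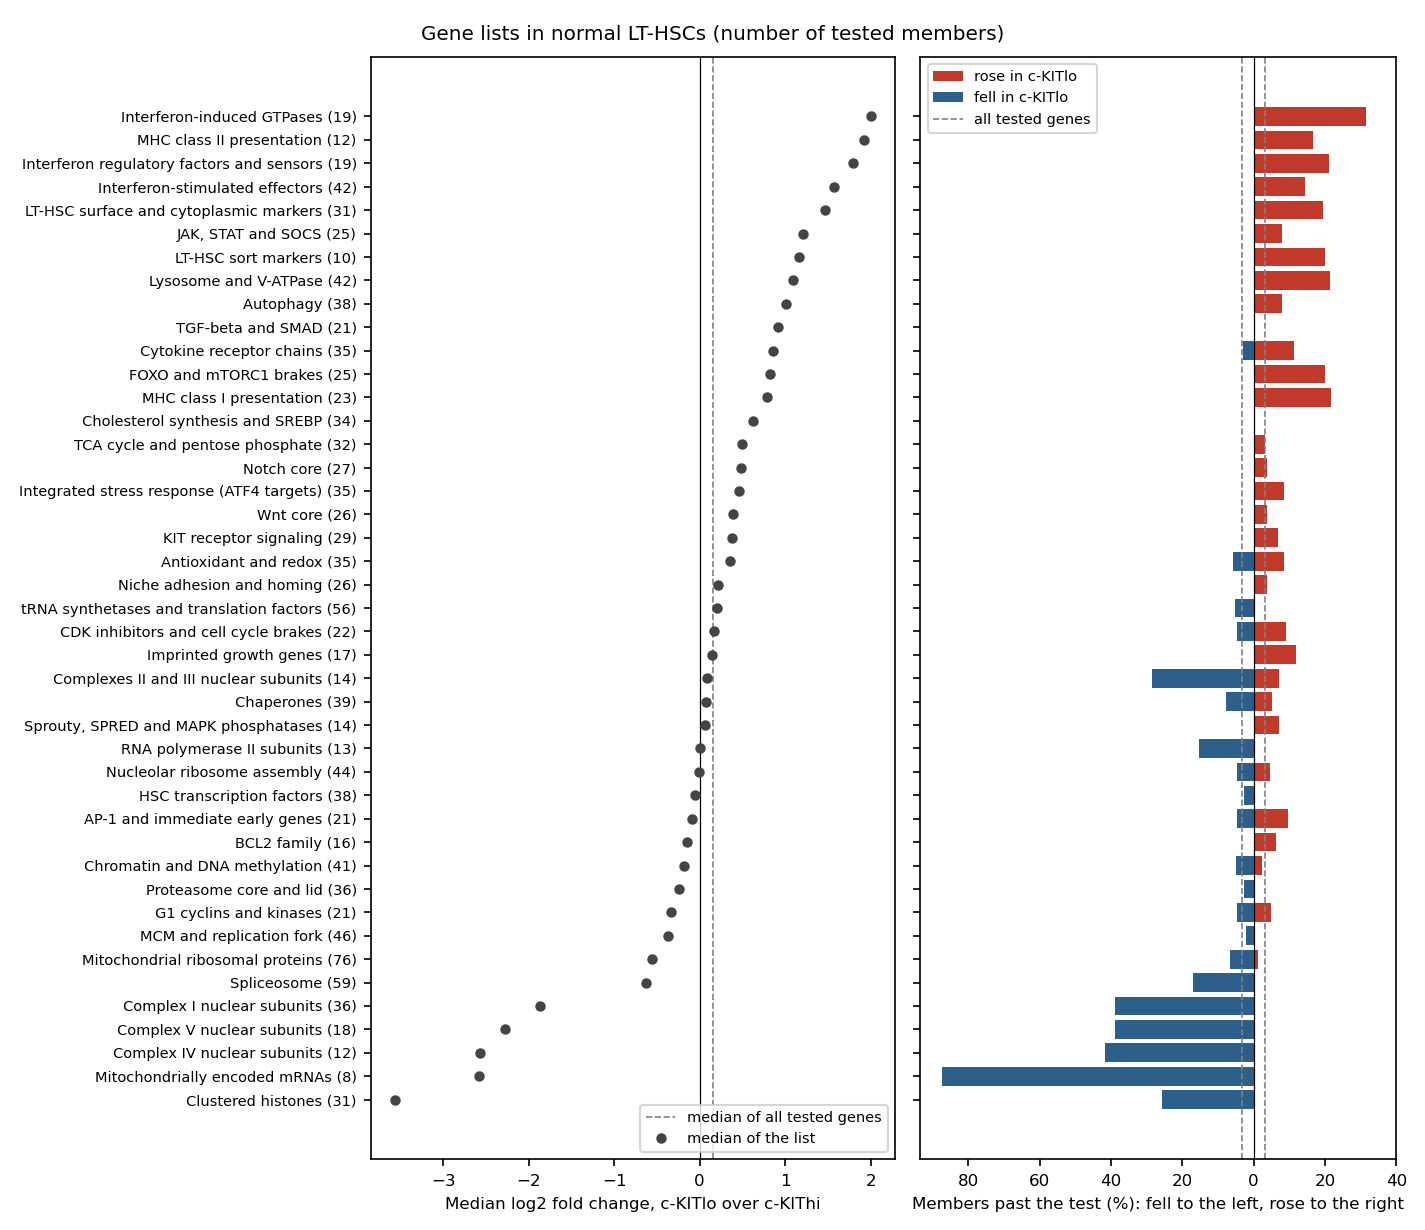
Median log2 fold change (left) and the percentage of members that rose or fell (right) for each of the gene lists on processes, with the number of tested members in brackets and dashed lines for all tested genes (median 0.16, 3.1% rose and 3.4% fell). The interferon lists and MHC class II genes stand at the top with 0 members that fell, and clustered histones and mitochondrially encoded mRNAs at the bottom with medians of -3.56 and -2.58.

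Many subunits of the respiratory chain fell in c-KITlo libraries, from both genomes. Of 36 nuclear complex I genes tested, 0 rose, 14 fell and 21 lay apart downward (median log2 fold change -1.87). Of 12 complex IV genes 5 fell and 0 rose (median -2.57), of 18 complex V genes 7 fell and 0 rose (median -2.28), and of 14 genes of complexes II and III 4 fell and 1 rose (median 0.08, whose sign changed in 9 alternative settings, with 7 members above 0). *Ndufc1* had 60.7, 21.7 and 167 CPM in c-KITlo libraries, against 8421, 3592 and 2625 CPM in c-KIThi libraries (log2 fold change -5.88, SE 0.93, adjusted p = 0.0142). The ATP synthase subunit *Atp5k* had 90.7, 31.5 and 250 CPM in c-KITlo libraries, against 10500 to 12151 CPM in c-KIThi libraries. *Uqcr10* of complex III and *Cox6c* of complex IV fell (log2 fold changes -4.73 and -4.04). The 1 subunit that rose was *Sdha*, the catalytic subunit of complex II, which had 1129, 1024 and 652 CPM in c-KITlo libraries, against 394, 227 and 256 CPM in c-KIThi libraries (3.2-fold higher, adjusted p = 0.0282).

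Of 8 mitochondrially encoded mRNAs tested, 7 fell and 0 rose (median log2 fold change -2.58). *mt-Cytb* had 553, 517 and 1305 CPM in c-KITlo libraries, against 3495, 3147 and 2337 CPM in c-KIThi libraries, and *mt-Nd2* had 18.8, 17.9 and 83.5 CPM in c-KITlo libraries, against 1087, 1601 and 994 CPM in c-KIThi libraries. The groups lay apart in all 7 that fell. Fewer mitochondria per cell and less RNA per mitochondrion cannot be told apart in these libraries. Of 76 mitochondrial ribosomal protein genes, 5 fell and 1 rose (*Mrpl9*).

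Of 59 spliceosome genes tested, 10 fell, 0 rose, 21 lay apart downward and 18 had a log2 fold change above 0 (median -0.63, and -1.13 without c-KITlo library 3). The Sm core genes *Snrpe*, *Snrpg* and *Snrpd1* fell (log2 fold changes -3.18, -3.85 and -2.89). *Tra2b*, a splicing regulator, had 54.6, 53.1 and 58.8 CPM in c-KITlo libraries, against 294, 534 and 288 CPM in c-KIThi libraries (log2 fold change -2.74, adjusted p = 0.0209). Other genes that fell were the ribosomal proteins *Rpl39*, *Rps28* and *Rps29* (-5.30, -4.70 and -5.66 on the log2 scale), the centromere proteins *Cenph* and *Cenpw* (-3.79 and -4.42) and the translation factor subunit *Eif2s2* (-3.94). The LIM protein *Crip1* had 100, 62.4 and 352 CPM in c-KITlo libraries, against 6110, 6210 and 4721 CPM in c-KIThi libraries. The median over all genes that fell was -4.04. Cytosolic ribosomal protein genes were not counted as a list, so those named give no result for the family. Ribosomal protein genes have many processed copies, so their counts depend on how reads at several places were treated.

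The complex I level ranked the libraries of each group as a property of the libraries did. The summed level of complex I genes was 8692, 3719 and 20160 CPM in c-KITlo libraries, against 74609, 40711 and 32427 CPM in c-KIThi libraries. That order, library 3 above 1 above 2 in c-KITlo and 1 above 2 above 3 in c-KIThi, is also the order of the share of counts on genes under 1 kb (5.46%, 2.88% and 1.4%, against 13.8%, 12.3% and 11.5%). Any complex I gene under 1 kb is itself part of that share, so the orders are not independent. The histone sums given above kept that order in c-KITlo but not in c-KIThi libraries. Over all genes with under 500 bases of exon, 12.5% fell and 0.154% rose, against 2.27% and 2.49% of genes over 5000 bases. With offsets for length, 305 genes rose and 242 fell, of which 246 and 229 were shared with the main fit. The median log2 fold change of all tested genes was then 0.61, against 0.16 without offsets. With these offsets the median of the spliceosome genes was -0.10 and 7 of them fell, and 11 complex I, 7 complex V, 4 complex IV and 1 mitochondrially encoded gene fell, and 4 lysosomal genes and 4 interferon-induced GTPases rose. From 2000 to 3000 bases, 5.39% rose and 2.65% fell. Length was taken over all annotated exons, so a gene with a short main transcript can count as long. The part of these library properties in the falls and in the rises was not tested.

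**Figure D4:**
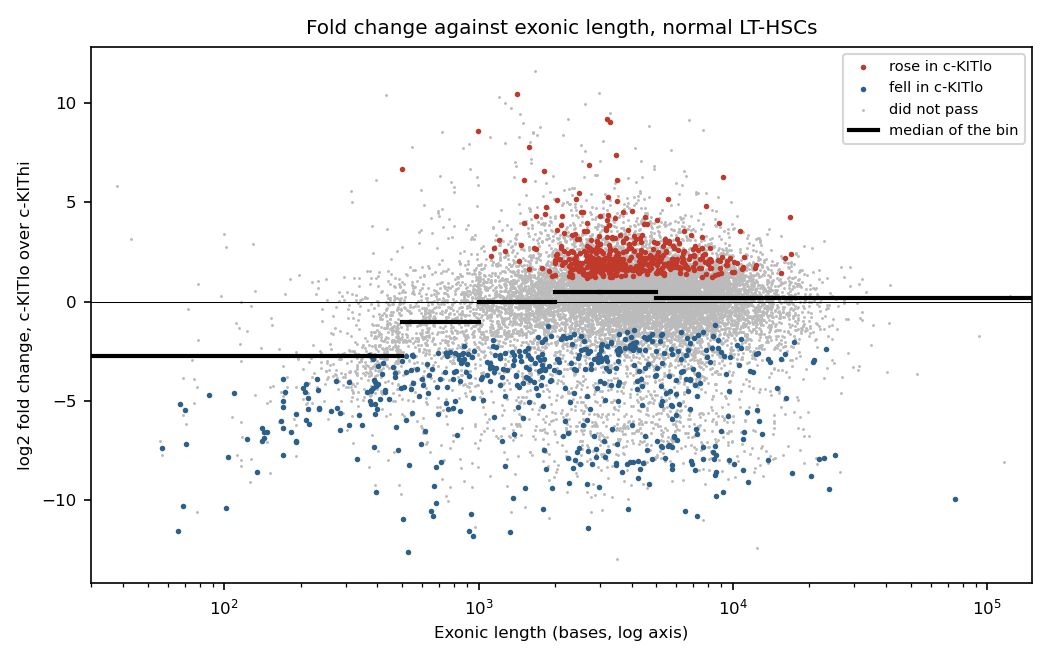
log2 fold change of c-KITlo over c-KIThi against exonic length in bases (log axis) for each tested gene with a length, red for genes that rose, blue for genes that fell and grey for those that did not pass, with a black bar for the median of each length bin. The median is -2.73 under 500 bases and -1.02 from 500 to 1000 bases, and 0.48 from 2000 to 3000 bases, and nearly all genes that rose lie above 1000 bases.

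**Figure D5:**
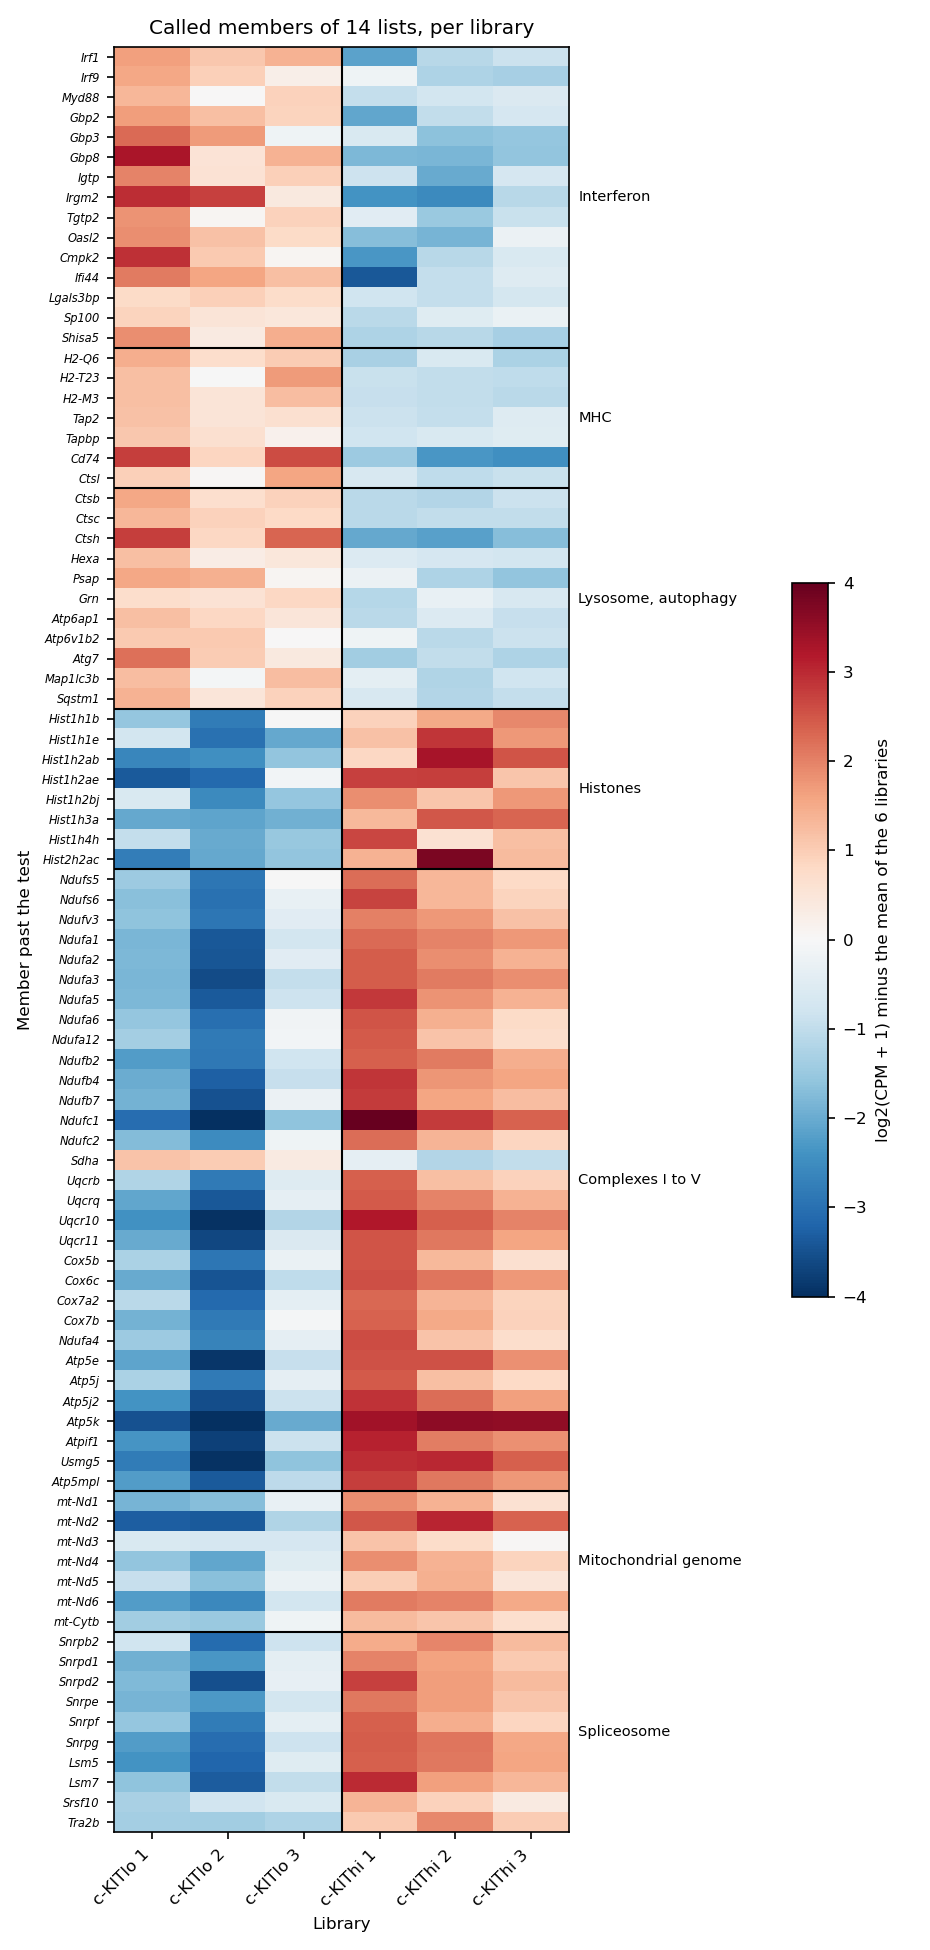
Members of 14 lists that rose or fell, 89 of them, each as log2(CPM + 1) minus its mean over the 6 normal libraries (color scale from -4 to 4), with the 3 c-KITlo libraries left of the 3 c-KIThi libraries. Interferon, MHC and lysosomal members are above their mean in most c-KITlo libraries, histone, respiratory and spliceosome members below it, and *Sdha* stands apart from its block, and c-KITlo library 2 is the lowest in most respiratory members and c-KITlo library 3 the highest of the c-KITlo libraries.

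Many of the genes with the largest fall were absent from c-KITlo libraries or belong to repeats. *Med9os*, a noncoding RNA, had 0 counts in the c-KITlo libraries and 91.3, 37.9 and 17 CPM in c-KIThi libraries, and the mitochondrial cysteine tRNA *mt-Tc* had 0 counts in c-KITlo libraries and 539 counts over the c-KIThi libraries. *Prg3*, an eosinophil and basophil granule protein, had 0 counts in c-KITlo libraries and 19.8, 7.46 and 57 CPM in c-KIThi libraries (at least 617-fold lower). The predicted genes *Gm10800*, *Gm10801*, *Gm10717*, *Gm10719*, *Gm10722* and *Gm26870* include near-identical copies of repeats, and *Gm10800* alone had 5.17, 0.256 and 0.895 CPM in c-KITlo libraries, against 454, 3982 and 7027 CPM in c-KIThi libraries. Their counts are uncertain for that reason. Among lineage markers, 1 of 14 mast cell and basophil markers and 1 of 13 monocyte and dendritic cell markers fell, and 0 rose in either list. The medians of these lists were -0.79 and 0.82, with 6 of the 14 and 9 of the 13 members above 0. The monocyte and dendritic cell median was -0.12 without c-KITlo library 3. The mast cell protease *Cpa3* had 0 counts in c-KITlo libraries and 3.9, 4.43 and 7.39 CPM in c-KIThi libraries, and the monocyte receptor *Csf1r* had 0 counts in c-KITlo libraries and 4.48, 3.04 and 0.765 CPM in c-KIThi libraries. Of 17 neutrophil, 16 erythroid and 12 B-lineage markers tested, 0 rose and 0 fell. Their median log2 fold changes were 1.64, -0.24 and 2.28, and that of the neutrophil markers was -2.21 without c-KITlo library 3. Among 20 megakaryocyte markers, 2 rose and 0 fell, and their summed level was 5488, 6233 and 8110 CPM in c-KITlo libraries, against 13963, 7759 and 5384 CPM in c-KIThi libraries.

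The CML libraries were used to ask whether the normal change was particular to normal LT-HSCs. Of the 455 genes that rose, 409 (89.9%) had a CML log2 fold change of the same sign and 94 rose in CML, and of the 499 that fell, 449 (90%) had the same sign and 320 fell in CML, against 66.3% of the same sign over all tested genes. In CML, 2.91% of genes rose and 5.53% fell. The normal and CML comparisons share no samples but share the spread estimate. The CML libraries also differed in the kind of read they held. Genes with under 1 kb of exon held 1.87% to 2.91% of counts in CML c-KITlo libraries, against 7.04% to 12.8% in CML c-KIThi libraries. Entries on genes made up 55.8% to 57.3%, against 26.7% to 37.1%. The part of these library properties in the shared signs was not tested. The test of the difference, normal minus CML, called 0 genes in edgeR (0% higher and 0% lower), where 924 lay above and 739 below 0 at an unadjusted p under 0.05, and DESeq2 called 100 and 124. No gene or list is therefore shown to differ between normal and CML by the edgeR test.

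Among genes that rose in normal LT-HSCs, those with the smallest unadjusted p of that difference included *Ly6a*, which averaged 131 CPM in CML c-KITlo and 176 CPM in CML c-KIThi libraries (difference of log2 fold changes 3.53, edgeR adjusted p = 0.294). The immunity GTPase *Gimap6* had 1457, 489 and 1065 CPM in normal c-KITlo libraries, against 197, 170 and 176 CPM in normal c-KIThi libraries, and averaged 230 CPM in CML c-KITlo and 240 CPM in CML c-KIThi libraries. The TNF receptor adaptor *Traf1* rose 15.8-fold in normal LT-HSCs, with 17.4 CPM in CML c-KITlo and 13.2 CPM in CML c-KIThi libraries. Medians of the list members were 2.01 in normal and 0.74 in CML for the interferon-induced GTPases, 1.57 and 0.21 for the interferon-stimulated effectors, and 1.93 and -0.62 for MHC class II genes, with 0 differences called in these lists. Complex I genes had medians of -1.87 in normal and -3.11 in CML. *Xist*, expressed from the inactive X chromosome of females, had 0.0663, 4.05 and 3.2 CPM in normal c-KITlo libraries, against 9.83, 176 and 18.5 CPM in normal c-KIThi libraries, and 0 counts in CML libraries, which instead held transcripts of Y-linked genes. The animals' sex and the disease can therefore not be told apart in the comparison of normal with CML.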

How the data were processed

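Poly(A)-primed cDNA (SMARTer v4) was made into Nextera XT libraries, which do not mark strand, and sequenced on an Illumina HiSeq. Per the submitters' processing notes and methods, the authors aligned reads to GRCm38 with STAR 2.5.3a and counted them per gene with HTSeq 0.9.1. The deposited values are raw counts, 1 table of 48795 genes, not normalized. HTSeq's summary entries were left out of library sizes. They include reads at several places, 34.3% to 66.5% of the entries in normal libraries, which HTSeq does not assign to genes. Columns were matched to samples by name.

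Counts of all 12 libraries were fitted with edgeR 4.0.16 in R 4.3.3 (4 group means, TMM, filterByExpr, quasi-likelihood F test, Benjamini-Hochberg adjustment, threshold 0.05). For a group at 0 counts the fold was bounded with 3 counts in that group, and intervals of count ratios (95%) cover counting error only. Replicate libraries differed by more than sampling noise. Scripts were tested on simulated data. DESeq2 1.42.0, limma 3.58.1 and the other settings of the closing section were alternatives.

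The members, lists and tests were chosen with earlier results of these data known. Named genes were the 12 with the largest rise and the 12 with the largest fall among called genes whose groups did not overlap (mean of 20 CPM or more in the higher group), up to 4 of each list by p, the sort and sex-linked genes, *Trib3* and *Gfi1*, and up to 6 each way by the p of the difference between normal and CML. Further list members were named after their values were seen, to complete a count or as a contrast. Lengths and shared exons came from GENCODE M21 and promoters from RefSeq. Some genes are counted in the lists but not reported here by name.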

Additional observations from a re-analysis of the deposited data

Results flagged for a closer look

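In 10 of the genes called in normal LT-HSCs that the naming rule picks, the libraries of normal and of CML mice lay apart in opposite directions. The rule takes some genes by the smallest p of the difference between normal and CML. Opposite directions among the named genes therefore follow in part from that choice. None of these differences passed the edgeR test of the difference (lowest adjusted p = 0.294). The difference of log2 fold changes, normal minus CML, was 2.23 for *Ciao1*, which averaged 65.5 CPM in CML c-KITlo and 91.5 CPM in CML c-KIThi libraries. It was 2.64 for *Smpdl3a* (82.4 CPM in CML c-KITlo and 114 CPM in CML c-KIThi libraries) and 3.72 for *Kazald1* (6.5 and 13.8 CPM in CML c-KITlo and CML c-KIThi libraries).

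The 7 others had few or no counts in normal c-KITlo libraries, so their fitted differences depend on the prior count and give no size of effect. They were -15.85 for *Csf1r*, -10.08 for *Acvr1*, -19.69 for *Prg3*, -13.84 for *Nt5e*, -10.93 for *Zswim5*, -13.00 for *Nphp4* and -14.82 for *Txk*. In CML c-KITlo libraries these genes averaged 1.86 to 9.29 CPM, and in CML c-KIThi libraries 0 to 0.688 CPM. Of all 954 genes called in normal LT-HSCs, 31 lay apart in opposite directions.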

How the results depend on the processing

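The number of calls moved with the test, the libraries and the scaling. Against 455 genes that rose and 499 that fell, DESeq2 called 1202 and 1498, limma-voom with sample weights 2 and 0, no filter on low counts 574 and 900, thinning to equal depth 286 and 449, length offsets 305 and 242, and medians of ratios 322 and 547, with 37.1% rises of all calls against 47.7%. The fit of only the 6 normal libraries called 0 and 0 (905 and 1463 at an unadjusted p under 0.05). With a filter on those libraries it called 3 and 23, and DESeq2 on them 426 and 717, both chosen after seeing the data. Leaving out 1 library gave 0 to 955 that rose and 0 to 1058 that fell. DESeq2 shared 453 of the rises and 492 of the falls, and length offsets 246 and 229. With a replicate block, 68 rose and 131 fell, of which 68 and 129 were shared. Same-numbered normal libraries correlated at 0.096, 0.059 and -0.066 in their deviations from the group means, and c-KITlo libraries 2 and 3 correlated best with another number, so the numbers were not taken to pair samples.

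The difference between normal and CML, 0 above and 0 below, became 100 and 124 in DESeq2 and 50 and 87 with no filter. Leaving out 1 library gave 0 to 287 above and 0 to 198 below, with 287 and 198 without normal c-KITlo library 2 and 0 and 5 without normal c-KITlo library 3. Of genes that did not pass, *Slamf1* changed sign in limma-voom (log2 fold change -2.45) and *Mecom* with length offsets (0.78). Leaving out 1 library, *Slamf1* ranged over -0.15 to 0.85, *Cd34* over -0.24 to 0.58 and *Hoxb5* over -0.13 to 0.58. Of 1794 values of named genes under other settings, 1057 kept their direction and side of the threshold, 729 fell below it, 6 newly passed and 2 changed sign. The cause was not tested.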

Other observations

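Several lists not described above had few calls in normal LT-HSCs. Of 21 TGF-β and SMAD genes and 34 cholesterol synthesis genes tested, 0 rose and 0 fell in edgeR. The TGF-β family receptor *Acvr1*, which fell, was counted with the cytokine receptor chains and not among the 21. Of 26 Wnt genes *Btrc* rose, of 27 Notch genes *Mfng*, of 16 BCL2 family genes *Bid*, and of 32 TCA cycle and pentose phosphate genes *G6pdx*, each named after its value was seen. Among 41 chromatin genes *Hdac3* rose and *Eed* and *Hmgb2* fell, and among 39 chaperones *Hsf1* and *Xbp1* rose while *Hsp90aa1*, *Hspe1* and *Ptges3* fell.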
